A study of Homo sapiens with 4 samples.

Results

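The BCL2 family decides whether a cell's mitochondria release the factors that start apoptosis, and this report describes 10 of its genes in a pair of clones of one colon cancer cell line. The members were BCL2L1, MCL1, BAX, BAK1, BIK, BID, BMF, BCL2L11, PMAIP1 and BBC3. Every probe set whose platform annotation names one of them was taken, which gave 28 of the 54675 probe sets in the deposited table. Of these, 27 name 1 gene. The single probe set for BBC3 (211692_s_at) also names MIR3190 and MIR3191, so its signal cannot be given to BBC3 alone. The rule that picks probe sets uses no measured value, but the 10 genes were proposed with earlier results of these data known.

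SW620 is a human cell line from a metastasis of a colon adenocarcinoma. Per the labels, CD133+ cells were separated from CD133- cells with magnetic beads, single cells were grown into clones, and the expanded clones were purified by CD133 a second time before total RNA was taken. The study had 2 arrays of CD133+ clone cells and 2 arrays of CD133- clone cells, all grown without a drug or other treatment named in the labels. Titles name 1 clone per group, so an effect of the clone cannot be told apart from one of CD133, and the labels do not state separate cultures for the 2 arrays of a clone. The p-values therefore measure the spread between arrays, which may be technical.

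As background, the family has opposing branches that share short BCL2 homology (BH) segments. Pro-survival members such as BCL-XL (from BCL2L1) and MCL1 hold the effectors BAX and BAK in check, and effectors that escape this control form pores in the outer mitochondrial membrane, from which cytochrome c escapes. BH3-only proteins relay stress signals by binding the pro-survival members, the effectors or both. In colon epithelium and its tumours the balance between these branches is known to set the sensitivity to many anti-cancer drugs, and response to such drugs is named in the study's design as a possible difference between the populations.

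The largest differences inside the family, in both directions, came from probe sets of BCL2L1 and BCL2L11, and for both genes the other probe sets gave smaller differences or the opposite sign. The 250 bases before the RefSeq gene start are shown for these genes (GRCh38.p14), with matches to any of the motifs searched in capitals.
BCL2L1, chr20:31723964-31724213, minus strand: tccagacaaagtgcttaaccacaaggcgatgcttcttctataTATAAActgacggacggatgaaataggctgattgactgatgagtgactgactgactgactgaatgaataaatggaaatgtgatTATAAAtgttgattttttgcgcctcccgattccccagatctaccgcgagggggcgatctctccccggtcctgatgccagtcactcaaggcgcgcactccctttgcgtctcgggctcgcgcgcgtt
BCL2L11, chr2:111120664-111120913, plus strand: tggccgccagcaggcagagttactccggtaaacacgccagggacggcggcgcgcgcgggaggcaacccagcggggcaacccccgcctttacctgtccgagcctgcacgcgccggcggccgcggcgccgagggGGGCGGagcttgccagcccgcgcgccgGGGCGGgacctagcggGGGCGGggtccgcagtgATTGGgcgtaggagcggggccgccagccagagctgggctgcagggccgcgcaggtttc
The windows differ in base composition, with 50% G or C for BCL2L1 and 76.8% for BCL2L11, where the median over 27305 promoter windows was 58.0%. BCL2L1 held TATAAA at 208 and 125 bases before the start, a motif found on either strand in 11.1% of all windows. BCL2L11 held the GC box GGGCGG at 118, 91 and 75 bases before the start, present in 42.3% of windows. It also held CCAAT, on the opposite strand and so printed as ATTGG, at 58 bases before the start, present in 33.0% of windows. These matches describe letters and say nothing of a factor's binding. BCL2L1 has more than 1 annotated start, and the window shown is the one outside the gene's RefSeq span. The window of the other start (chr20:31722869-31723118) had 60.4% G or C and held no TATAAA.

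The arrays were checked before the members were read. PROM1, which encodes CD133, had a log2 signal of 8.59 in CD133+ and 3.33 in CD133- cells, so it was 5.26 higher (SE 0.20, adjusted p = 0.000353 in limma). Of 8 colon epithelium markers, EPCAM, KRT8, KRT18, CDH1 and VIL1 were bright in both clones, the lowest group mean being 10.18 for VIL1 in CD133+ cells, while KRT20 was at 3.33 in CD133+ and 3.51 in CD133- cells, near the lowest signals of the arrays. CDH17 (7.30 in CD133+ and 7.05 in CD133- cells) and CDX2 (6.30 and 6.14) lay between. Leukocyte markers with a probe set lay between 3.84 and 4.11 in CD133+ and between 3.57 and 3.98 in CD133- cells. The 4 fibroblast markers lay between 3.95 and 7.01 in CD133+ and between 3.69 and 6.96 in CD133- cells, highest for COL1A1. The 3 endothelium markers lay between 3.46 and 5.72 in CD133+ and between 3.13 and 5.68 in CD133- cells, highest for PECAM1. The part of such cells in the members' values was not tested. RNA length was gauged by the 3' minus the 5' log2 signal of ACTB and GAPDH. For ACTB it came to 0.71 and 1.92 for CD133+ replicates 1 and 2, against 1.18 and 0.92 for the CD133- replicates, which sets CD133+ replicate 2 apart. The same measure of GAPDH did not set it apart, with 0.097 and 0.090 for the CD133+ replicates, against 0.017 and 0.026 for the CD133- replicates. The upper quartile of deposited signal was 6.69 and 6.60 for the CD133+ replicates, against 6.90 and 6.71 for the CD133- replicates, highest on CD133- replicate 1.

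All levels below are log2 signals after quantile normalization, and a difference is CD133+ minus CD133-. The groups were compared with limma over 54613 probe sets, with Benjamini-Hochberg adjustment over all of them and a call at an adjusted p under 0.05. In that fit 0 of the 28 BCL2 family probe sets passed, where 0.181% of all probe sets did (0.0494% higher and 0.132% lower). At an unadjusted p under 0.05 there were 9 member probe sets, 7 higher and 2 lower in CD133+ cells, which is 32.1% of the members where the background was 12.7% of all probe sets (5.76% higher and 6.97% lower). Of the members, 25 of 28 lay at or above the median level. Among probe sets at or above that level 19.6% had an unadjusted p under 0.05, beside 9 of those 25 members (36%). Both CD133+ arrays lay apart from both CD133- arrays in 13 of 28 member probe sets (46.4%), 9 higher and 4 lower, where the background was 43.9% (23.5% higher and 20.4% lower) and 51.5% among probe sets at or above the median level. All 13 were among the 25 members at or above that level (52.0%). The median difference of the members was -0.022, with 14 positive and 14 negative, beside 0.015 and 52.7% positive over all probe sets.

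**Figure D1:**
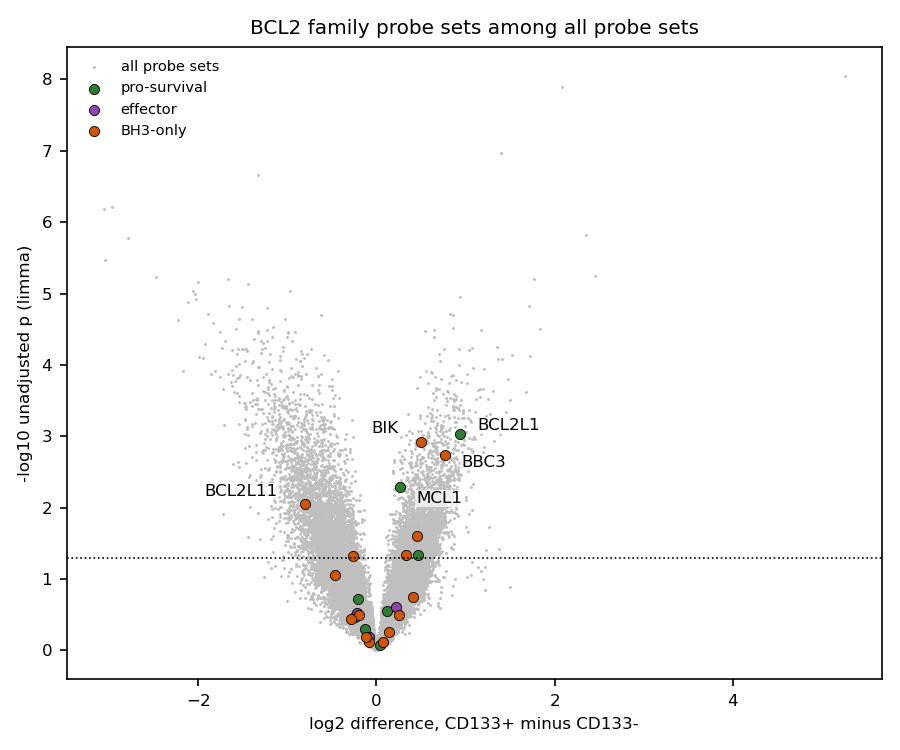
Each point is a probe set, with its log2 difference (CD133+ minus CD133-) across and -log10 of the unadjusted limma p upward. Grey points are all 54613 probe sets, coloured points the 28 BCL2 family probe sets by role, and the dotted line marks an unadjusted p of 0.05. The 9 family members above the line sit inside the grey cloud, and the point labelled BBC3 is the probe set that names 2 microRNAs as well.

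A second fit used 1 probe set per gene, the brightest, and left out the lowest 20% of genes by level. It tested 15820 genes and called 577 (3.65%), of which 207 were higher (1.31%) and 370 lower (2.34%) in CD133+ cells. In it 9 of the 10 member genes could be tested, since no probe set names BBC3 alone. BIK rose, and no other member passed. At an unadjusted p under 0.05 there were 3 members, BIK, MCL1 and BID, all with positive differences, where the background was 20.6% (10.8% for higher levels).

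Among the pro-survival members, BCL2L1 encodes BCL-XL, which binds and restrains BAX and BAK. Its probe set 231228_at had the smallest p of all members. It had levels of 8.19 and 7.86 in CD133+ and 7.18 and 6.99 in CD133- cells, and the groups did not overlap. The difference was 0.94 (SE 0.18, 1.92-fold, 95% interval 0.52 to 1.36, unadjusted p = 0.000931, limma adjusted p = 0.0968).

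The other 3 BCL2L1 probe sets did not show that difference. The brightest, 212312_at, had 10.41 and 10.58 in CD133+ and 10.35 and 10.41 in CD133- cells, a difference of 0.12 (SE 0.10, 95% interval -0.12 to 0.35). That interval ends below the lower bound of 231228_at. For 206665_s_at the difference was 0.035, with an interval from -0.39 to 0.46 and overlapping groups, and for 215037_s_at it was -0.092, from -0.54 to 0.35, also overlapping. The mean over the 4 probe sets had a difference of 0.25 (SE 0.12, adjusted p = 0.342 by limma). Scaling mattered for 231228_at, whose difference was 0.78 in the deposited values and 0.70 after centring (adjusted p = 0.292 and 0.357), and without CD133+ replicate 2 it was 1.10 and passed (adjusted p = 0.0487).

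MCL1 encodes a short-lived pro-survival protein that restrains BAK and binds several BH3-only proteins. Its 6 probe sets split by sign, with 2 positive and 4 negative. The brightest, 200797_s_at, had close replicates in both clones, at 11.99 and 11.96 in CD133+ and 11.71 and 11.72 in CD133- cells. Its difference was 0.26 (SE 0.067, 1.20-fold, 95% interval 0.10 to 0.41, unadjusted p = 0.00510, limma adjusted p = 0.185). The 1-probe-set-per-gene fit gave it an adjusted p of 0.0955.

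The second positive MCL1 probe set, 214057_at, had 6.56 and 6.87 in CD133+ and 6.24 and 6.26 in CD133- cells, a difference of 0.46 (SE 0.19, adjusted p = 0.379 by limma). The next brightest, 200798_x_at, had 9.94 and 9.55 in CD133+ and 10.01 and 9.90 in CD133- cells, a difference of -0.21 (SE 0.15, adjusted p = 0.591 by limma). In 200798_x_at the CD133+ arrays overlapped the CD133- arrays, and replicate 2 of CD133+ was the lowest of the 4. The remaining MCL1 probe sets, 200796_s_at, 214056_at and 227175_at, had differences of -0.23, -0.24 and -0.13 at lower levels, the highest group mean being 5.28. In 200796_s_at the CD133+ arrays (5.20 and 4.90) both lay below the CD133- arrays (5.26 and 5.30). The groups overlapped in 214056_at and 227175_at. Averaged over its probe sets, MCL1 had a difference of -0.015 (SE 0.13, adjusted p = 0.969 by limma).

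**Figure D2:**
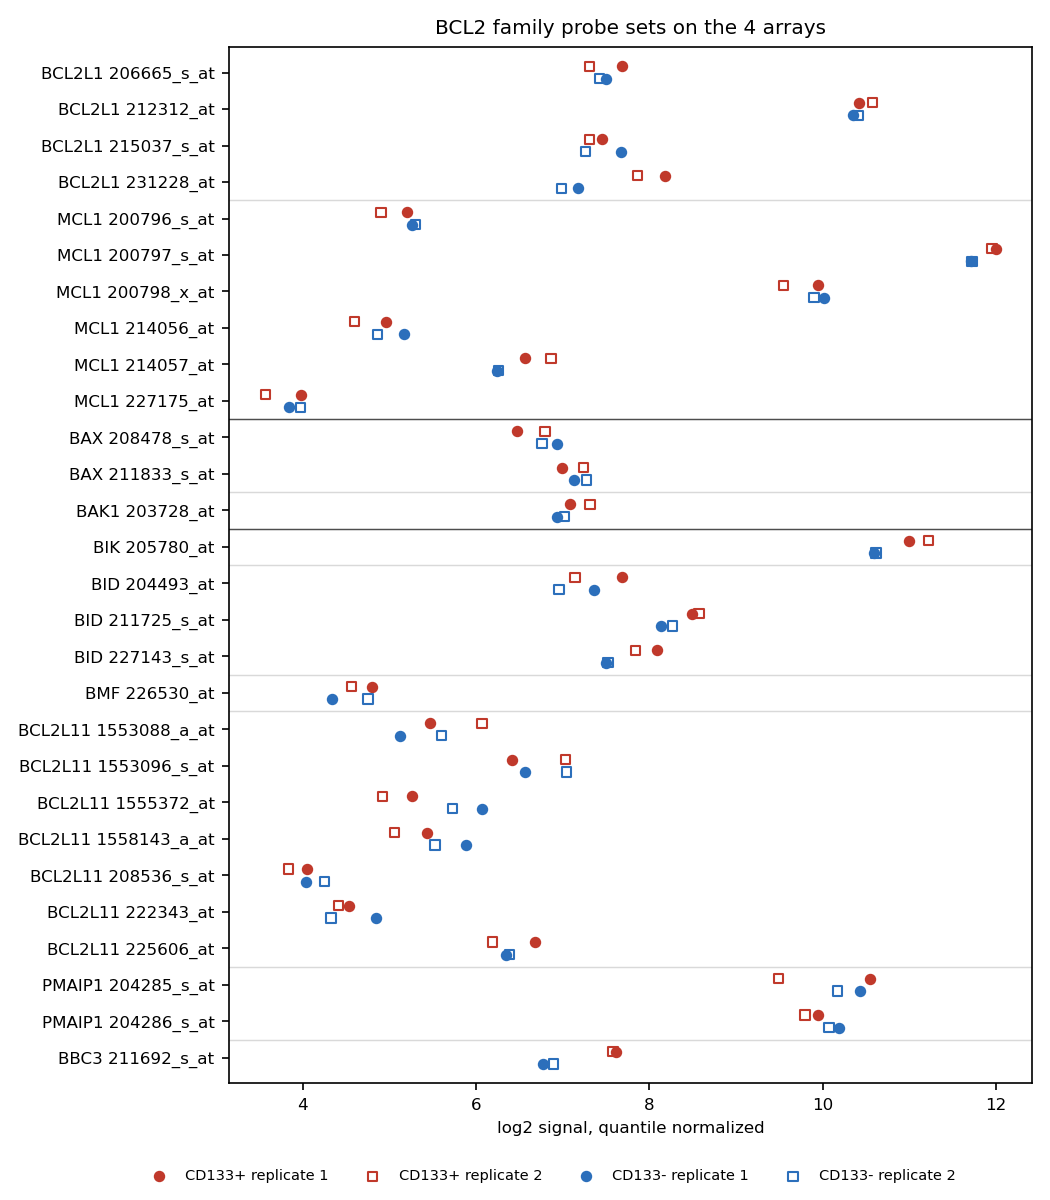
The plot of levels shows the log2 signal of each of the 28 probe sets (rows, by gene) on the 4 arrays, with CD133+ in red above CD133- in blue, filled circles for replicate 1 and open squares for replicate 2. CD133+ points lie right of both CD133- points in 9 rows and left of both in 4, and the widest replicate gap is that of PMAIP1 204285_s_at in CD133+ cells.

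The effectors BAX and BAK form the mitochondrial pores. BAX, normally cytosolic until activated, had 2 probe sets with overlapping groups. For 211833_s_at the levels were 6.99 and 7.24 in CD133+ and 7.13 and 7.27 in CD133- cells, a difference of -0.085 (SE 0.18, 95% interval -0.50 to 0.33, limma adjusted p = 0.883). For 208478_s_at they were 6.47 and 6.80 in CD133+ and 6.94 and 6.76 in CD133- cells, a difference of -0.22 (SE 0.20, 95% interval -0.67 to 0.24).

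BAK1 encodes BAK, which sits in the outer mitochondrial membrane. Its 1 probe set (203728_at) had 7.08 and 7.31 in CD133+ and 6.94 and 7.02 in CD133- cells. The groups did not overlap, and the difference was 0.22 (SE 0.17, 95% interval -0.19 to 0.63, limma adjusted p = 0.649), but centring each array on its median turned its sign, to -0.041.

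BIK is a BH3-only protein found mostly at the endoplasmic reticulum and is read here by 1 probe set (205780_at). The levels were 11.00 and 11.22 in CD133+ and 10.59 and 10.62 in CD133- cells. The groups did not overlap, and the replicate gap was 0.23 in CD133+ against 0.022 in CD133- cells. The difference was 0.51 (1.42-fold, 95% interval 0.27 to 0.74). Over all probe sets this gave SE 0.10 and a limma adjusted p of 0.106, and over 1 probe set per gene SE 0.10 and 0.0325. With probe sets averaged per gene, where BIK has the same difference, its adjusted p was 0.0645 and it did not pass.

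In the fit to 1 probe set per gene, BIK held its call without CD133+ replicate 1 (difference 0.62, adjusted p = 0.00255) and without CD133+ replicate 2 (0.39, 0.0438). It lost the call without CD133- replicate 1 (0.49, 0.181) and without CD133- replicate 2 (0.52, 0.0784). The deposited values kept it (0.49, 0.0390), while centring lost it (0.41, 0.102) and without a trend of variance on level (0.159). The sign was positive in each of these settings.

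BID links death receptors to mitochondria, since caspase-8 cleaves it into an active form. Its 3 probe sets all had positive differences. For 211725_s_at, the brightest, the levels were 8.49 and 8.57 in CD133+ and 8.13 and 8.26 in CD133- cells, a difference of 0.33 (SE 0.14, adjusted p = 0.381 by limma). For 227143_s_at they were 8.08 and 7.84 in CD133+ and 7.50 and 7.52 in CD133- cells, a difference of 0.45 (SE 0.16, adjusted p = 0.311 by limma). In both the groups stayed apart, with unadjusted p of 0.0462 and 0.0248.

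The third BID probe set, 204493_at, had 7.69 and 7.14 in CD133+ and 7.36 and 6.96 in CD133- cells, with overlapping groups and a difference of 0.25 (SE 0.24). The mean over the 3 was 0.35 (SE 0.13, limma adjusted p = 0.237). The difference of 211725_s_at was 0.20 in the deposited values and 0.12 after centring.

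BCL2L11 encodes BIM, a BH3-only protein that binds all pro-survival members and is made in several splice forms. It had the most probe sets, 7, and the widest spread of differences among them. For 1555372_at the levels were 5.27 and 4.92 in CD133+ and 6.07 and 5.73 in CD133- cells, with no overlap. The difference was -0.81 (SE 0.23, 95% interval -1.35 to -0.27, unadjusted p = 0.00889, limma adjusted p = 0.225).

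A second BCL2L11 probe set, 1558143_a_at, also kept the groups apart, at 5.43 and 5.06 in CD133+ and 5.89 and 5.53 in CD133- cells, a difference of -0.46 (SE 0.24, adjusted p = 0.467 by limma). The opposite sign came from 1553088_a_at, with 5.47 and 6.07 in CD133+ and 5.12 and 5.60 in CD133- cells, a difference of 0.41 (SE 0.28, adjusted p = 0.580 by limma). The groups overlapped there. The brightest probe set of the gene, 1553096_s_at, had 6.42 and 7.03 in CD133+ and 6.57 and 7.04 in CD133- cells, a difference of -0.079 (SE 0.26), smaller than either replicate gap.

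The other BCL2L11 probe sets, 208536_s_at, 222343_at and 225606_at, had differences of -0.20, -0.11 and 0.068 with overlapping groups. Over all 7, 2 were positive and 5 negative, and the mean over them was -0.17 (SE 0.14, limma adjusted p = 0.563). The annotation used here does not say which splice form each probe set detects.

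**Figure D3:**
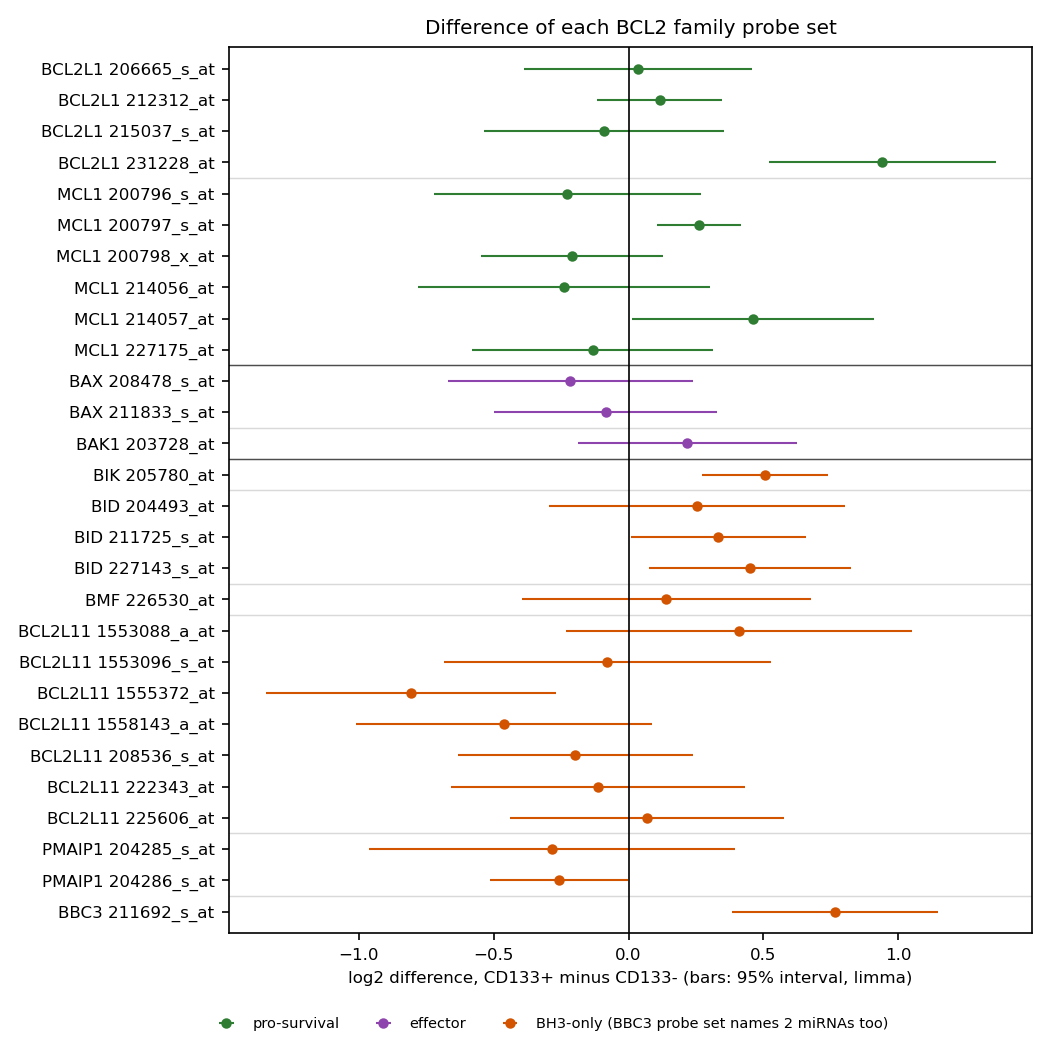
The plot of differences gives the log2 difference (CD133+ minus CD133-) of each probe set with its 95% interval from limma, coloured by role. The interval of BCL2L1 231228_at (0.52 to 1.36) lies right of that of BCL2L1 212312_at (-0.12 to 0.35), and that of BCL2L11 1555372_at (-1.35 to -0.27) lies left of 0.

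PMAIP1 encodes NOXA, a BH3-only protein that binds MCL1 and promotes its degradation. Its 2 probe sets had the same sign and different replicate spread. For 204286_s_at the levels were 9.95 and 9.80 in CD133+ and 10.19 and 10.07 in CD133- cells, with no overlap and a difference of -0.26 (SE 0.11, 95% interval -0.51 to -0.004, unadjusted p = 0.0473, limma adjusted p = 0.385).

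For 204285_s_at, the brighter on average, the levels were 10.54 and 9.49 in CD133+ and 10.43 and 10.17 in CD133- cells. The CD133+ arrays enclosed the CD133- arrays, with a replicate gap of 1.05, the widest of any member. The difference was -0.28 (SE 0.29, limma adjusted p = 0.733). It was -0.81 without CD133+ replicate 1, which passed (limma adjusted p = 0.0164), and 0.24 without CD133+ replicate 2 (0.604), so the single arrays of that clone decide its sign. The low array was the one with the ACTB 3' minus 5' value of 1.92, though its GAPDH value (0.090) was close to that of the other CD133+ array (0.097), and the part of RNA length in this value was not tested.

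BMF, a BH3-only protein tied to the cytoskeleton and released by stress and loss of attachment, had 1 probe set (226530_at), near the median level of the arrays. Its levels were 4.80 and 4.56 in CD133+ and 4.34 and 4.75 in CD133- cells. The groups overlapped, and the difference was 0.14 (SE 0.23, 95% interval -0.39 to 0.67, limma adjusted p = 0.843).

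BBC3 encodes PUMA, a BH3-only protein induced by DNA damage that binds all pro-survival members. The probe set that names BBC3 together with MIR3190 and MIR3191 (211692_s_at) had 7.62 and 7.58 in CD133+ and 6.77 and 6.90 in CD133- cells, with no overlap. The difference was 0.77 (SE 0.16, 1.70-fold, 95% interval 0.38 to 1.15, unadjusted p = 0.00180, limma adjusted p = 0.124). It was 0.60 in the deposited values and 0.52 after centring (adjusted p = 0.291 and 0.395).

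By role, the median difference was -0.028 over 10 pro-survival probe sets, -0.085 over 3 effector probe sets and 0.068 over 15 BH3-only probe sets. Each of these groups held probe sets of both signs, and 0 of each passed over all probe sets. CD133+ replicate 2 was the lowest of the 4 arrays in 11 of the 28 probe sets and CD133- replicate 1 in 10, where over all probe sets these arrays were lowest in 24.5% and 32.8%.

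**Figure D4:**
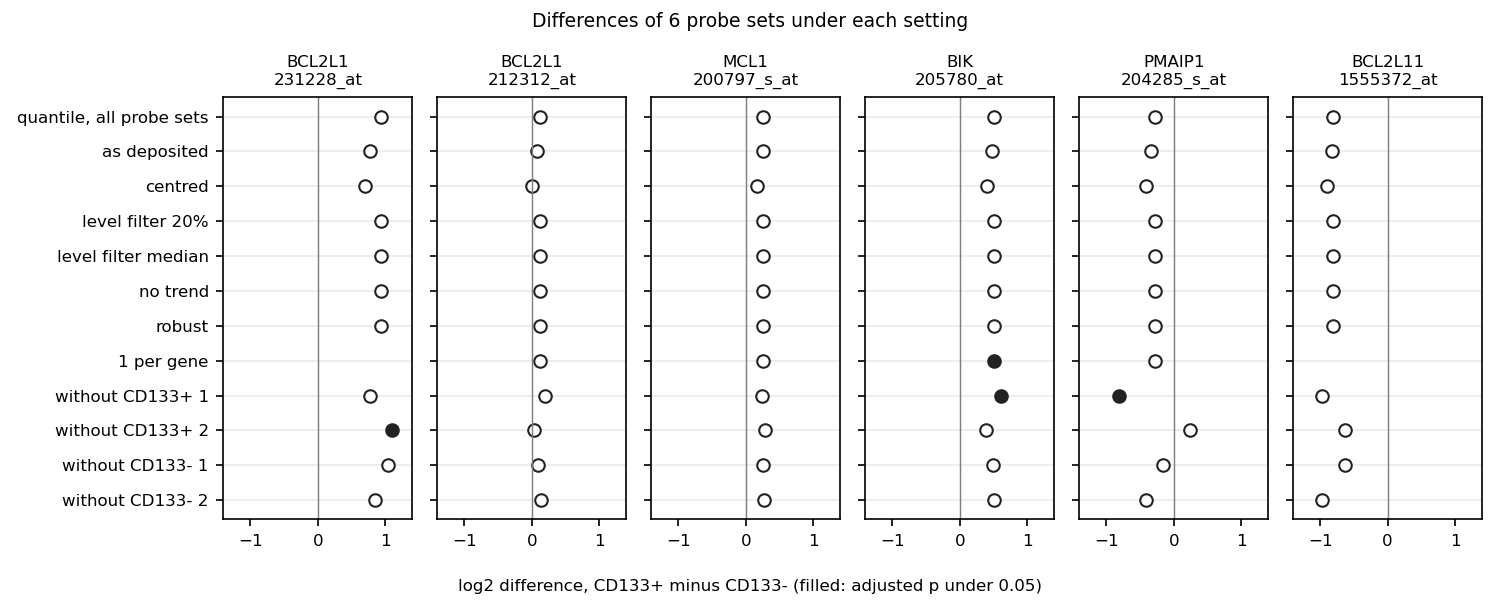
Each panel follows 1 probe set, with the log2 difference (CD133+ minus CD133-) across and the settings down the page, and filled points mark an adjusted p under 0.05. BCL2L1 231228_at and BIK keep a positive difference and BCL2L11 1555372_at a negative one in the settings shown, while PMAIP1 204285_s_at runs from -0.81 to 0.24 as single CD133+ arrays are left out. A missing point means that the probe set was not the brightest of its gene.

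The members lie on 8 chromosomes, with BIK and BID both on chromosome 22 and BAX and BBC3 both on chromosome 19. The 5 tested genes on each side of BCL2L1 on chromosome 20 had a median difference of 0.34, from -0.018 to 0.55, with 9 of 10 positive and 0 called, beside a median of 0.058 and 58.5% positive over all genes tested. For comparison, the 10 neighbours of BIK had a median of 0.14 with 7 positive, and those of BBC3 a median of 0.083 with 8 positive, again with 0 called. The neighbours of BIK and BBC3 were looked up after the values of those genes were seen.

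The rest of the pathway was read through 6 lists. Over all probe sets 0 of 167 passed in them, with 30 at an unadjusted p under 0.05 (18.0%, background 12.7%). For the count of each list below the background is also 12.7%, or 19.6% among probe sets at or above the median level. In the fit to 1 probe set per gene, 2 of 62 genes rose and 0 fell (background 1.31% and 2.34%).

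Among 13 other BCL2 family genes, 0 of 38 probe sets passed, with 2 at an unadjusted p under 0.05 and a median difference of 0.055. Both were for BCL2, the founding pro-survival member. Its probe set 207004_at had 6.81 and 7.10 in CD133+ and 6.33 and 6.50 in CD133- cells, a difference of 0.54 (SE 0.19, adjusted p = 0.306 by limma). Another BCL2 probe set, 207005_s_at, had a difference of 0.50. At lower levels, 203684_s_at had 0.18 and 203685_at had the opposite sign, at -0.24.

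Downstream of the pore, 12 of 15 listed genes of the apoptosome, the effector caspases and their inhibitors had a probe set, 30 in all, with 9 at an unadjusted p under 0.05. CYCS, which encodes cytochrome c, rose in the fit to 1 probe set per gene. Its brightest probe set, 208905_at, had 12.75 and 12.85 in CD133+ and 12.46 and 12.44 in CD133- cells, a difference of 0.35 (SE 0.071, adjusted p = 0.0386 by limma). Over all probe sets its adjusted p was 0.0798.

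A second CYCS probe set, 229415_at, had 8.44 and 8.51 in CD133+ and 7.58 and 7.65 in CD133- cells, a difference of 0.86 (SE 0.14, adjusted p = 0.0740 by limma). The third, 244546_at, had the opposite sign, at 4.95 and 4.06 in CD133+ and 5.25 and 4.63 in CD133- cells, with overlapping groups and a difference of -0.43 (SE 0.34, adjusted p = 0.642 by limma). CYCS no longer passed in the deposited values (0.32, adjusted p = 0.0510), after centring (0.24, 0.182) or without a trend of variance on level (0.35, 0.228). It was also lost without CD133+ replicate 2 (0.30, 0.0569), without CD133- replicate 1 (0.36, 0.218) and without CD133- replicate 2 (0.34, 0.121).

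Of the mitochondrial partners, 10 genes with 20 probe sets, none passed in either fit, with 4 probe sets at an unadjusted p under 0.05. The one with the smallest p was the outer membrane channel VDAC1 (212038_s_at), at 11.27 and 10.94 in CD133+ and 11.46 and 11.41 in CD133- cells, a difference of -0.34 (SE 0.11, adjusted p = 0.285 by limma). Of 8 genes for ubiquitin enzymes that act on MCL1, with 24 probe sets, none passed in either fit and 2 had an unadjusted p under 0.05. TRIM17, a ubiquitin ligase, had a difference of 0.65 (SE 0.22, adjusted p = 0.282 by limma) at a low level, 4.74 in CD133+ and 4.09 in CD133- cells.

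Of the transcription factors that act on BH3-only genes, 9 of 10 listed had probe sets, 20 in all, and none passed in either fit, with 5 at an unadjusted p under 0.05. FOXO3, a factor that drives BCL2L11 and BBC3, had 10.03 and 10.03 in CD133+ and 9.73 and 9.71 in CD133- cells on 224891_at, a difference of 0.31 (SE 0.10, adjusted p = 0.270 by limma). Of 12 p53 target genes other than the members, with 35 probe sets, 0 probe sets passed over all probe sets and 8 had an unadjusted p under 0.05. SESN2, a stress-induced sestrin, rose in the fit to 1 probe set per gene, and its difference was 0.72 (SE 0.11, limma adjusted p = 0.0180).

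Over all probe sets the limma adjusted p of SESN2 was 0.0813. In the fit to 1 probe set per gene, SESN2 no longer passed in the deposited values (0.65, adjusted p = 0.0539) or after centring (0.57, 0.113). The same held without a trend of variance on level (0.72, 0.0993). It also lost it without CD133- replicate 1 (0.75, 0.0814) and without CD133- replicate 2 (0.69, 0.0537).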

How the data were processed

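The authors deposited 1 log2 signal per probe set and array for 4 arrays. Background correction, normalization and summarisation are not given in the sources used here, beyond the submitters' processing notes, which name Affymetrix Expression Console. The 62 Affymetrix controls were left out, and the remaining 54613 probe sets were quantile normalized. The comparison ran in limma 3.58.1 under R 4.3.3 (lmFit, eBayes with a trend of variance on level, prior degrees of freedom 5.65), with Benjamini-Hochberg adjustment over all probe sets. Intervals are 95% intervals from that fit. An exact two-sided permutation test of 1 probe set cannot go below p = 0.333 with 2 arrays a group, and this number of arrays limits the precision. The fit was tested on simulated data, with a spread set by level alone and 200 probe sets changed. It recovered 11% of them at a log2 change of 0.5, 96% at 1 and 100% at 2.

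Probe sets were named through the platform annotation (41091 name 1 gene, 1801 several, 11721 none), and genes placed through RefSeq (GRCh38.p14), which also gave the promoter windows (8 of 10 members matched). Windows were searched on both strands for the GC box GGGCGG, the CCAAT box, the TATA box TATAAA, the E-box CACGTG and the E2F site TTTGGCGC, and the first 3 matched in the windows printed.

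The members and lists were chosen with earlier results of these data known. The rule for named genes took every member probe set and, from each list, called genes or the probe set with the smallest p. The rule would only have counted the probe set naming several genes, and its values are given because it names a member. Of the neighbours, only those of BCL2L1 fall under the rule. Alternatives were other scalings, level filters, variance models, 1 value per gene, the replicate number as a block and leaving out each array. Without an array its group rests on 1, assumed to vary like the other group.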

Additional observations from a re-analysis of the deposited data

How the results depend on the processing

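Over all probe sets 0 family members were called after quantile normalization, in the values as deposited, with centred arrays, with either level filter, without the variance trend or with robust settings, and with probe sets averaged per gene. With the brightest probe set per gene 1 was called (BIK), and 1 also in that fit on the values as deposited. Leaving out single arrays gave 0 to 2 calls in either fit, those being BIK, BCL2L1 231228_at and PMAIP1 204285_s_at. The fits to 1 probe set per gene under other scalings, without trend, with the block and without single arrays were added after seeing the data. Over all features, 99 calls became 6 as deposited, 32 centred, 144 and 337 with the filters at 20% and at the median, 2 without trend, 152 robust, 577 with the brightest and 247 with averaged probe sets, and 9 to 644 when 1 array was dropped (644 and 379 for CD133+ replicates 1 and 2, 9 and 53 for CD133- replicates 1 and 2). The share of calls higher in CD133+ cells was 27 of 99, against 3 of 6 as deposited and 7 of 32 centred. The median difference over all probe sets was 0.015, 0.036 and -0.042 in these scalings. The cause of these changes was not tested.

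Replicate numbers are shared by the groups, but with 2 pairs and no label of a shared batch they do not pair the arrays. The differences between replicates 1 and 2 correlated across probe sets between the clones (r = 0.40). With the replicate number as a block 2554 probe sets and 5 members were called (BCL2L1 231228_at, BIK, MCL1 200797_s_at, the BBC3 probe set and, lower, BCL2L11 1555372_at), and 3 in the fit to 1 probe set per gene.

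The sign turned for small differences. In the deposited values BCL2L1 206665_s_at was at -0.14 and BCL2L11 225606_at at -0.030, and after centring these were at -0.22 and -0.11 and BAK1 at -0.041. MCL1 was at -0.015 with probe sets averaged. Over fits that each left out 1 array, BCL2L1 206665_s_at ran from -0.15 to 0.22 and 215037_s_at from -0.30 to 0.11, MCL1 227175_at from -0.34 to 0.071, BAX 211833_s_at from -0.21 to 0.040, BID 204493_at from -0.020 to 0.53 and BMF from -0.068 to 0.35. BCL2L11 1553096_s_at ran from -0.38 to 0.23 (0.16 without CD133- replicate 2 in the fit to 1 probe set per gene), 222343_at from -0.37 to 0.15 and 225606_at from -0.18 to 0.31, and PMAIP1 204285_s_at from -0.81 to 0.24. The cause was not tested. No detection calls were used here, so signal over background was not assessed.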
